A study of Mus musculus with 10 samples.

Results

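The genes described here encode the proteins of the cytosolic ribosome. They were chosen by symbol: genes named Rpl or Rps followed by a number, alone or with a single suffix letter a, x, y or l that may carry a further number, together with the stalk proteins Rplp0, Rplp1 and Rplp2 and with Rpsa, while pseudogenes and the ribosomal S6 kinases were left out. Rpl36al and Rps27rt, whose suffixes have more letters, are listed but are not matched by this pattern. The rule found 82 of the 16771 listed genes. Of these, 77 encode standard subunit proteins, 31 of the small and 46 of the large subunit, and 5 are paralogues of standard members (Rpl3l, Rpl7l1, Rpl22l1, Rpl39l and Rps27l).

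RNA was measured in mouse bone marrow cells from 5 groups of 2 libraries, all on the C57BL/6 strain. The Npm1c group carried Npm1flox-cA/+ with Mx1-Cre+, a conditional allele that turns one Npm1 copy into the cytoplasmic form found in acute myeloid leukaemia. The Flt3-ITD group carried Flt3ITD/+, an internal tandem duplication in the Flt3 receptor, and no Cre is named for it. The double mutant carried Npm1flox-cA/+, Flt3ITD/+ and Mx1-Cre+. Cells of these 3 genotypes and of wild-type (WT) mice were haematopoietic stem and progenitor cells (HSPC), here the whole fraction left after magnetic depletion of lineage-positive cells. The remaining group was WT neutrophils isolated by a magnetic kit. Mx1-Cre is driven by an interferon-responsive promoter and is not limited to HSPC. The labels used here give neither age nor inducing agent, and do not say whether WT mice carried Cre. The libraries of a group are numbered as replicates, and nothing in those labels says whether they came from separate animals, so p-values measure only the spread between these libraries.

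A ribosome needs each of its proteins in matched amounts, and cells make them from separate genes on many chromosomes. Their mRNAs begin with a C followed by a run of pyrimidines, the 5′ terminal oligopyrimidine motif, through which mTOR and the RNA-binding protein Larp1 set their translation together. Blood cell formation is known to be sensitive to their dose: loss of 1 copy of several of these genes causes Diamond-Blackfan anaemia in humans. NPM1, the protein altered in 2 of the mutant groups, is a nucleolar chaperone that takes part in ribosome assembly.

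RefSeq start regions on GRCm38.p6 were at hand for 62 of the 82 genes. A run of at least 5 pyrimidines that began with C within 5 bases of the annotated start was present in 28 of them, or 45.2%. Among 27025 annotated mouse start regions, with each gene symbol counted once, the share was 18.5%. In the windows of 30 bases below, read 5′ to 3′ with 15 bases on each side of the point where transcription is annotated to begin, capitals mark that run. Rps6 is shown as a standard case, and the others because they return in the comparisons as genes that moved apart from the rest.
Rps6: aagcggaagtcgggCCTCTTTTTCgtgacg
Rps26: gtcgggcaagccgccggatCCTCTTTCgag
Rps27: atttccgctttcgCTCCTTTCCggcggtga
Rps9: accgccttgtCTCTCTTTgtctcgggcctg
Rps2: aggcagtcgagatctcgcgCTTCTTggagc
Rpl22l1: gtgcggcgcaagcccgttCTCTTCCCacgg
Rpl12: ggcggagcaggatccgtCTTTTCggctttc
Rpl38: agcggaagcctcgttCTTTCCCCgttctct
Rpl31: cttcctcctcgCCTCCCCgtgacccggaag
Rps12: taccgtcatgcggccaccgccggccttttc
Rplp0: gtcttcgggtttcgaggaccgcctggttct

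In that order they lie at chr4:86857353-86857382 (minus strand), chr10:128626492-128626521 (minus), chr3:90213634-90213663 (minus), chr7:3704026-3704055 (plus), chr17:24720048-24720077 (plus), chr3:28805493-28805522 (plus), chr2:32961697-32961726 (plus), chr11:114668565-114668594 (plus), chr1:39367836-39367865 (plus), chr10:23787195-23787224 (minus) and chr5:115559452-115559481 (plus). The windows of Rps12 and Rplp0 held no such run at the annotated start. The search depends on that start: the Rps12 window ends in a pyrimidine stretch that lies too far from it to count. Whether the mRNAs of genes without a run lack the motif was not tested. Over the 250 bases before and 50 after the start, on either strand, CCGGAAG, the core bound by the ETS factor GABP, was present in 40.3% of the 62 genes and in 9.12% of all start regions. The Sp1 box GGGCGG was present in 59.7% of the 62 against 35.9% of all. The Yy1 core AAGATGGC was present in 8.06% against 2.88%, and TATAAA in 9.68% against 14.2%. These matches describe letters, not bound sites.

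The library totals behind the values ran from 40783015 to 57824373 reads. The neutrophil libraries matched their label: 10 late neutrophil genes summed to 99129 to 99403 RPKM (reads per kilobase of gene length, scaled to the library total) there, against 56.8 to 75.5 in WT HSPC. They also held markers of other cells. Mast cell and basophil genes summed to 473 to 483 RPKM in neutrophils, against 458 to 479 in WT HSPC. Plasma cell genes summed to 304 to 306 against 214 to 217, and monocyte genes to 250 to 255 against 117. Sums of primary granule, erythroid, megakaryocyte, and T and NK cell genes were lower in neutrophils than in WT HSPC. In Npm1c the sum of 8 stem and progenitor genes was 34.8 to 35.3 RPKM. It was 35.3 to 50.9 in Flt3-ITD cells, 58.2 to 58.4 in the double mutant and 6.26 to 6.32 in neutrophils, against 45.5 in both WT HSPC libraries. Markers of several cell types were present in the lineage-depleted cells, and their sums differed with genotype. In double mutant HSPC, 4 primary granule genes summed to 93.0 to 93.5 RPKM against 987 to 1033 in WT HSPC, 4 mast cell and basophil genes to 5.93 to 8.94 against 458 to 479, and 5 monocyte genes to 647 to 650 against 117. The 2 Flt3-ITD libraries differed from each other, with primary granule sums of 702 and 1658 RPKM. The 2 Npm1c libraries differed in the late neutrophil sum, with 88.4 and 413 RPKM, and both Flt3-ITD libraries (260 to 300.02) were also above WT HSPC in it. None of the marker genes was at 0 in a group. The part of these marker differences in the ribosomal protein results was not tested, and in such bulk samples fewer cells of a type and less RNA per cell cannot be told apart.

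Ribosomal protein transcripts were among the most abundant in HSPC. Of reads on listed genes, the 82 genes took 9.05% and 8.98% in the Npm1c libraries and 8.91% and 8.62% in the Flt3-ITD libraries. They took 6.91% and 6.87% in the double mutant, and 1.43% and 1.45% in neutrophils, against 8.17% and 8.52% in WT HSPC. Both libraries of Npm1c and of Flt3-ITD were above both of WT HSPC, both of the double mutant were below, and the neutrophils stood far under all HSPC. The median level of the 82 genes was 173 and 178 RPKM in Npm1c cells and 193 and 170 in Flt3-ITD cells. The double mutant had medians of 147 and 144 and neutrophils of 37.3 and 38.0, against 188 and 195 in WT HSPC. The Npm1c medians lay below those of WT HSPC although the share of reads lay above. The deposited RPKM uses a library total that includes reads outside the listed genes, and 60.9% to 63.1% of that total fell on listed genes in Npm1c, against 74.1% to 74.5% in WT HSPC.

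**Figure D1:**
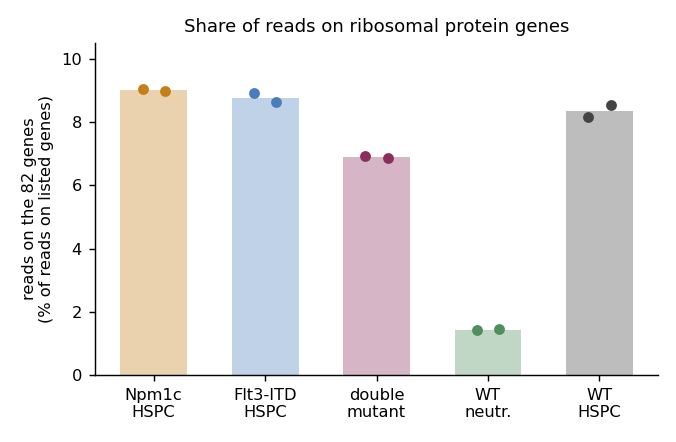
Reads on the 82 ribosomal protein genes as a percentage of reads on listed genes (vertical axis) in each of the 5 groups; dots are the 2 libraries and bars their mean. Double mutant HSPC sit at 6.91% and 6.87% and neutrophils at 1.43% and 1.45%, against 8.17% and 8.52% in WT HSPC.

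Levels of different members could not be compared on the deposited scale alone. The gene length inside the authors' RPKM, recovered from the values, equalled the exon lengths summed over every annotated transcript for 42 of the 82 genes, and it exceeded the gene's own genomic span for 32. Against 1 coding transcript of the same gene it was longer by a median of 4.19 times (range 0.651 to 19.4). Rpl9, a large-subunit protein, shows this most strongly: its length in the RPKM was 13168 bases, its gene spans 3081 bases and its coding transcript has 680. In WT HSPC its mean of 73.0 RPKM ranked 70 among the 82 genes, while 1413 RPKM computed with the coding transcript's length ranked 10.

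**Figure D2:**
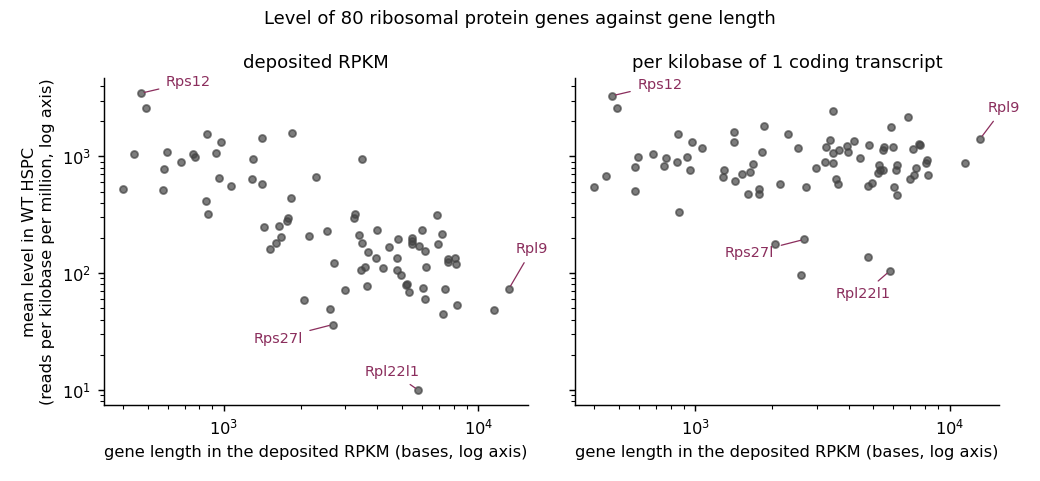
Mean level in WT HSPC of the 80 genes above 1 RPKM against the gene length used in the deposited values, on log axes; each dot is a gene. On the deposited RPKM scale (left) level falls with length (Spearman −0.77 over the standard genes), and per kilobase of 1 coding transcript (right) it does not (0.04).

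Per kilobase of coding transcript the standard members lay close together in WT HSPC. The ratio of the 90th to the 10th percentile of the 77 genes was 2.90 on that scale, against 14.4 in deposited RPKM. The median was 880 transcript-based RPKM. Rps12, on the beak of the small subunit, was highest at 3304, followed by the acidic stalk protein Rplp1 at 2579, the stalk base Rplp0 at 2428, Rps2 at 2178 and Rpsa at 1822. Rps20 was lowest at 138, but only under an unusually long coding transcript of 3706 bases. The paralogues Rpl22l1, Rpl7l1 and Rps27l were at 104, 96.8 and 195. Rpl3l, a muscle form of Rpl3, and Rpl39l were below 1 on the same scale. The length choice cancels when 1 gene is compared between groups. Members also share sequence with other genes: a median of 58.7% of a gene's 50-base stretches also occurred in transcripts of other genes. That share was 90.1% for Rps12, 85.6% for Rpl3, 79.0% for Rps2, 77.7% for Rpl10a, 65.6% for Rpl22l1 and 38.3% for Rps26. The authors' handling of repeated matches, not given in the sources used here, could therefore move a level. In all, 27 members overlap another annotated gene, among them Rps2, Rps27a, Rpl3, Rpl10a, Rpl12, Rpl22l1, Rpl30, Rpl31 and Rpl7l1, each with a gene on the opposite strand. Whether counting used strand is not stated, so reads of such partners cannot be told apart.

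Of the comparisons made, that of WT neutrophils against WT HSPC had the largest change of these genes. All 80 members tested fell, and none rose, with limma adjusted p under 0.05, in a comparison where 62.8% of all genes fell and 28.4% rose. The median member changed by −2.39 on the log2(RPKM + 0.5) scale, against −0.70 for all genes tested. With libraries scaled by the median of ratios over all genes, which moves the median of all genes to 0.01, the member median was −1.53, and 80 of 81 members fell, beside a background of 44.9%. Every one of the 80 calls was kept when each of the 10 libraries was left out in turn. The spread between members was small beside that of other genes: the SD of their log2 changes was 0.41, against 1.73 over all genes.

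**Figure D3:**
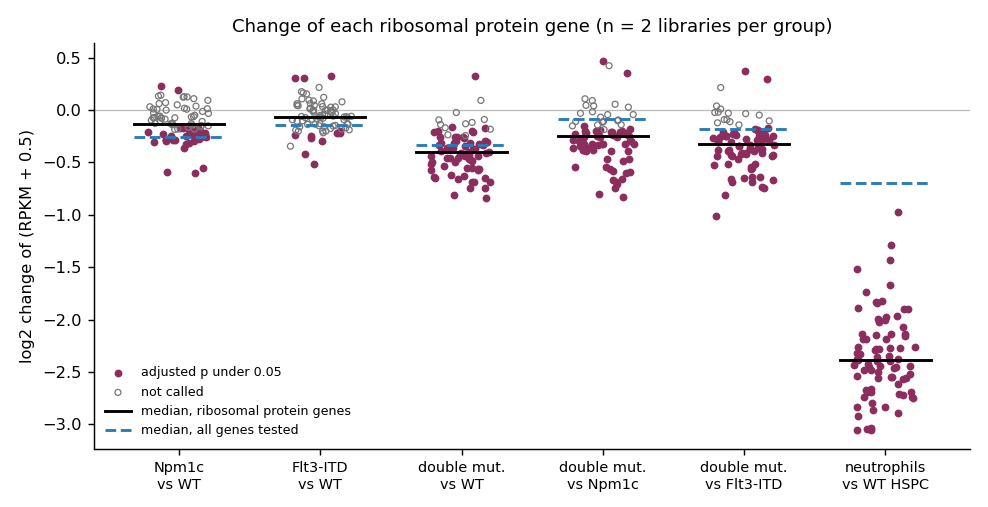
Log2 change of each tested ribosomal protein gene in 6 comparisons, with called genes filled and the medians of these genes (solid) and of all genes tested (dashed). The neutrophil comparison sits apart, with every member below the all-gene median of −0.70.

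To see which members departed from the others, each library was also scaled so that the typical standard member was level, called the pool below. On this scale higher and lower members roughly balance by construction. Their split, here and in the comparisons below, is therefore not a result, and only which members departed can be read. Against that pool, 32 of 81 members were higher and 29 lower in neutrophils than in WT HSPC (background 80.9% higher and 11.1% lower on this scale, where most genes are higher because the pool fell).

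Rps9, at the entry of the mRNA channel, fell least. It had 64.0 and 63.5 RPKM in neutrophils against 123 and 128 in WT HSPC. Its deposited log2 change was −0.97 ± 0.06 (SE, limma adjusted p 6.2e-07), while relative to the pool it was 1.44 ± 0.04 higher (7.7e-10). Rps9 thus had a larger share of a smaller pool, and 33.0% of its 50-base stretches were shared with 1 other gene. Rps27, a zinc-finger protein of the small subunit, had 45.4 and 45.7 RPKM in neutrophils against 108 and 115 in WT HSPC, 1.12 ± 0.04 higher relative to the pool (4.0e-09). Nearly all of its transcript, 98.6%, was shared with 9 other genes, so reads of those genes cannot be told apart from its own. Rps27a, made as a fusion to ubiquitin, had 39.0 and 39.8 RPKM in neutrophils against 120 and 108 in WT HSPC, and was 0.89 ± 0.07 higher relative to the pool (9.5e-07).

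At the low end stood Rpl10a, Rpl12 and Rps2. Rpl10a, of the L1 stalk, had 8.52 and 8.73 RPKM in neutrophils against 72.5 and 77.7 in WT HSPC, a deposited change of −3.05 ± 0.06 (limma adjusted p 8.7e-10) and −0.69 ± 0.04 relative to the pool (1.3e-07). Rpl12, at the base of the acidic stalk, had 16.3 and 15.95 RPKM in neutrophils against 133 and 139 in WT HSPC, −0.65 ± 0.04 relative to the pool (5.1e-07). Rps2, also at the mRNA entry, had 37.9 and 37.3 RPKM in neutrophils against 307 and 326 in WT HSPC, −0.65 ± 0.04 relative to the pool (4.1e-07). Rps9 and Rps2 are neighbours at the mRNA entry and lay at opposite ends of the list.

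Among paralogues, Rpl7l1, a nucleolar relative of Rpl7, had 17.8 RPKM in both neutrophil libraries against 48.6 and 49.0 in WT HSPC, 0.95 ± 0.04 higher relative to the pool (limma adjusted p 2.2e-08). Rpl3l had 1.03 and 0.96 RPKM in neutrophils against 0.06 and 0.02 in WT HSPC, and its deposited values missed the minimum for testing. After scaling to the pool, by median of ratios or by quantiles it reached that minimum, through its neutrophil level. Relative to the pool it was 2.93 ± 0.06 higher (limma adjusted p 6.1e-11). Its WT HSPC values lay far below the constant added before taking logs, so this size depends on that constant and on the scaling. The adjusted p adds no support, because the high neutrophil level itself admitted the gene to the test. Rpl3l was the 1 member with higher deposited values in neutrophils, at a level far below that of Rpl3. Rpl3 had 27.9 and 28.9 RPKM there against 216 and 220 in WT HSPC. Rpl39l lay at or under 0.11 RPKM in every library.

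In double mutant HSPC the ribosomal protein genes were lower than in WT HSPC, by much less than in neutrophils. Of 80 members, 68 fell and 1 rose (limma adjusted p under 0.05), beside 58.9% of all genes that fell and 23.9% that rose. The member median was −0.40 against −0.34 for all genes, so the typical member fell about as much as the typical gene. Under median-of-ratios scaling, which moves the median of all genes to −0.02, 27 members fell and 14 rose (background 39.8% and 38.0%), with a member median of −0.05. Scaling to the total of listed genes gave 54 lower and 4 higher with a median of −0.20. Of all genes, 4773 of 9687 were lower and 3044 higher on that scale, with a median of −0.15. Quantile normalization gave 46 lower and 11 higher with −0.16. There 5164 of 9616 genes were lower and 2795 higher, and their median of −0.22 lay below that of the members. The member median stayed below 0 on each of these scales, as did the median of all genes. The size of the member median and the number of calls moved with the scaling. Of the 69 calls on the deposited scale, 56 were kept when each of the 8 HSPC libraries was left out in turn.

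On the pool scale, 20 members were higher and 22 lower in the double mutant than in WT HSPC (background 39.6% and 35.9%). Among the higher members, Rps27 had 121 and 117 RPKM in the double mutant, 91.5 and 94.8 with Npm1c alone and 104 and 89.9 with Flt3-ITD alone, against 108 and 115 in WT HSPC. The double mutant libraries were above all other HSPC libraries, but on the deposited scale the change against WT HSPC was 0.09 ± 0.08 and not called (limma adjusted p 0.30). Relative to the pool it was 0.48 ± 0.04 (2.3e-05). Rpl17, which lines the peptide exit tunnel, had 978 and 957 RPKM in double mutant HSPC against 973 and 994 in WT HSPC, 0.37 ± 0.04 relative to the pool (6.7e-05). It kept its deposited level while most members were lower.

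Rps2 and Rplp0 were among the lowest members against the pool. Rps2 had 182 and 178 RPKM in double mutant HSPC against 307 and 326 in WT HSPC, a deposited change of −0.81 ± 0.06 (1.2e-05) and −0.42 ± 0.04 relative to the pool (6.7e-05). In the single mutants Rps2 had 293 and 295 RPKM with Npm1c alone and 313 and 290 with Flt3-ITD alone, all above the double mutant.

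**Figure D4:**
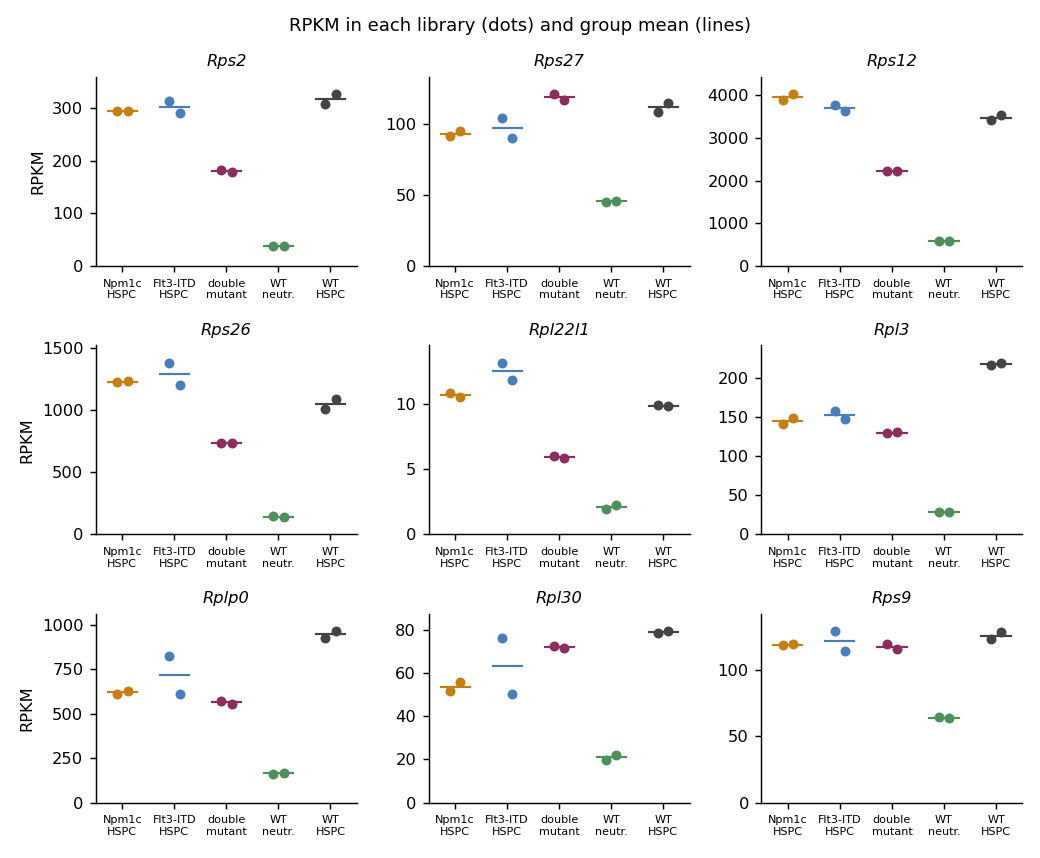
RPKM of 9 ribosomal protein genes (vertical axes from 0) in each library of the 5 groups; dots are libraries and lines group means. Rps27 is higher in double mutant HSPC than in the other HSPC, Rps2 is lower there than in the other HSPC, Rps12, Rps26 and Rpl22l1 are lower there than in either single mutant, and Rplp0 and Rpl30 differ between the 2 Flt3-ITD libraries.

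In Npm1c HSPC, 30 of 80 members fell and 2 rose against WT HSPC (limma adjusted p under 0.05), beside 58.1% and 2.49% of all genes. The member median was −0.13 against −0.26 for all genes. Under median-of-ratios scaling (all genes at −0.01) the split turned, with 44 members higher and 2 lower, beside 18.3% and 20.1% of all genes, and a member median of 0.16. It also turned on the other scales. Scaling to the total of listed genes gave 27 higher and 3 lower with a median of 0.06. Of all genes, 958 of 9687 were higher and 3010 lower there, with a median of −0.09. Quantile normalization gave 25 higher and 5 lower with 0.05. There 1893 of 9616 genes were higher and 1714 lower, with a median of 0.01. The deposited count also depended on single libraries. It was 7 without Npm1c replicate 1, 14 without Npm1c replicate 2, 12 without WT replicate 1, 3 without WT replicate 2 and 50 without either Flt3-ITD library.

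Within the pool, 20 members were higher and 15 lower in Npm1c than in WT HSPC (background 5.05% and 38.0%). That count was 17 and 15 without Npm1c replicates 1 and 2, 14 and 15 without WT replicates 1 and 2, and 21 and 20 without double mutant replicates 1 and 2. The highest was Rps26, a Diamond-Blackfan protein near the mRNA exit, with 1225 and 1232 RPKM in Npm1c against 1006 and 1093 in WT HSPC, 0.37 ± 0.04 relative to the pool (limma adjusted p 0.00092). Rps12 had 3897 and 4019 RPKM in Npm1c against 3419 and 3527 in WT HSPC, 0.33 ± 0.05 (0.0025). Rpl38, whose loss disturbs the axial skeleton of mice, had 173 and 179 RPKM in Npm1c against 155 and 164 in WT HSPC, 0.28 ± 0.04 (0.0027).

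The lowest in Npm1c were Rplp0, Rpl3 and Rpl30. Rpl3, close to the peptidyl transferase centre, had 141 and 148 RPKM in Npm1c against 216 and 220 in WT HSPC, a deposited change of −0.59 ± 0.05 (limma adjusted p 0.00067) and −0.45 ± 0.05 relative to the pool (0.00071). Rplp0 had 612 and 630.0 RPKM in Npm1c against 925 and 966 in WT HSPC, −0.47 ± 0.08 relative to the pool (0.0037). Rpl30, a large-subunit protein that in yeast limits splicing of its own transcript, had 51.7 and 55.8 RPKM in Npm1c against 78.5 and 79.7 in WT HSPC, −0.42 ± 0.12 relative to the pool (0.024). The Rpl30 call was lost without either Npm1c library, with adjusted p of 0.10 and 0.073, and without either WT library, with 0.12 and 0.083.

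In Flt3-ITD HSPC fewer members passed: 9 fell and 3 rose of 80 against WT HSPC (limma adjusted p under 0.05), beside 31.3% and 1.86% of all genes, with medians of −0.07 for members and −0.14 for all genes. Median-of-ratios scaling (all genes at 0.01) gave 26 higher and 1 lower (background 8.36% and 9.62%). Leaving out Flt3-ITD replicate 1 gave 45 calls, leaving out either WT library 1 each, and leaving out either double mutant library 2 each. On the pool scale, 9 members were higher and 9 lower than in WT HSPC (background 3.36% and 19.6%), with 5 calls without either WT library and 11 without either double mutant library.

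The highest in Flt3-ITD was Rpl22l1, the paralogue of Rpl22, with 13.2 and 11.9 RPKM against 9.98 and 9.85 in WT HSPC, 0.39 ± 0.05 relative to the pool (limma adjusted p 0.0055). The tunnel protein Rpl39, X-linked, had 243 and 206 RPKM in Flt3-ITD against 181 and 182 in WT HSPC, 0.37 ± 0.05 (0.004). Rps26 had 1383 and 1205 RPKM in Flt3-ITD, above both WT HSPC values, and 0.37 ± 0.04 relative to the pool (0.0031). Rpl3 was lowest, with 158 and 147 RPKM in Flt3-ITD against 216 and 220 in WT HSPC, −0.45 ± 0.05 relative to the pool (0.0027). Rpl31, by the exit tunnel, had 133 and 115 RPKM in Flt3-ITD against 147 and 157 in WT HSPC, −0.23 ± 0.04 (0.0096), a call lost without either WT library (adjusted p 0.061 and 0.050).

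The 2 Flt3-ITD libraries split on Rplp0 and Rpl30. Rplp0 had 826 and 608 RPKM in Flt3-ITD against 925 and 966 in WT HSPC, −0.35 ± 0.08 relative to the pool (limma adjusted p 0.021), and the call was lost without either WT library (0.12 and 0.090). Rpl30 had 76.3 and 50.6 RPKM in Flt3-ITD against 78.5 and 79.7 in WT HSPC and did not pass. Replicate 2 lay at the Npm1c level for both genes and replicate 1 nearer to WT HSPC.

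Some members were low in each of the 3 mutant groups. Rpl3 was 0.35 ± 0.05 below the pool in the double mutant (limma adjusted p 0.00023), with 130 RPKM in both libraries, Rplp0 0.36 ± 0.08 below it (0.0039) with 572 and 554 RPKM, and Rpl31 0.29 ± 0.04 below it (0.00027) with 94.6 and 94.2 RPKM. The 3 mutant comparisons share the WT HSPC libraries, so these values do not support each other independently.

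The double mutant was also set against each single mutant, a difference that uses no WT HSPC level. Against Npm1c, 56 of 80 members fell and 2 rose (limma adjusted p under 0.05), beside 43.0% and 34.4% of all genes, with a member median of −0.25 and −0.09 for all genes. Against Flt3-ITD, 64 fell and 2 rose, beside 48.8% and 28.6%, with medians of −0.33 and −0.18. Under median-of-ratios scaling 56 fell and 4 rose against Npm1c (background 41.6% and 39.4%), and 43 fell and 9 rose against Flt3-ITD (40.0% and 38.6%). In both comparisons far more members fell than rose on both scales.

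In pool terms, 22 members were higher and 23 lower in the double mutant than in Npm1c (background 48.0% and 28.4%), or 29 in all without double mutant replicate 1. Against Flt3-ITD, 20 were higher and 23 lower (45.7% and 28.6%). Rps27 was higher by 0.60 ± 0.04 against Npm1c (limma adjusted p 5.8e-06) and 0.61 ± 0.04 against Flt3-ITD (6.0e-06), and Rpl30 by 0.67 ± 0.12 (0.001) and 0.53 ± 0.12 (0.0038). Rps12, Rps26 and Rpl22l1 were lowest in both.

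Those 3 genes lay on opposite sides of WT HSPC in single and double mutants. Rps12 had 2219 and 2217 RPKM in double mutant HSPC, a deposited change of −0.65 ± 0.06 against WT HSPC (limma adjusted p 3.6e-05), while both single mutants lay above WT HSPC with 3897 and 4019 RPKM in Npm1c and 3777 and 3638 in Flt3-ITD. Rps26 had 735 RPKM in both double mutant libraries, against 1225 and 1232 in Npm1c and 1383 and 1205 in Flt3-ITD. Rpl22l1 had 6.00 and 5.91 RPKM in double mutant HSPC, against 10.85 and 10.6 in Npm1c and 13.2 and 11.9 in Flt3-ITD. For each of the 3 genes, all double mutant libraries lay below all WT HSPC libraries and all single mutant libraries above them. Not every rise was called on the deposited scale against WT HSPC. Rpl22l1 was not called in Npm1c, where no paralogue rose. Rps12 was not called in Flt3-ITD, where the 1 small-subunit rise was Rps26.

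The interaction, the double mutant change minus the sum of the single mutant changes, tests whether the 2 mutations together differ from additive effects on the log2 scale. On the deposited scale 29 members were lower and 5 higher than the sum of the single effects (limma adjusted p under 0.05), beside 27.6% and 39.2% of all genes, with a member median of −0.17 and 0.09 for all genes. Under median-of-ratios scaling 56 were lower and 4 higher (background 36.1% and 37.1%), and without Flt3-ITD replicate 2 the deposited count was 53. Against the pool, 24 were lower and 22 higher (19.4% and 50.2%). The lowest were Rpl22l1 at −0.95 ± 0.08 (2.2e-05), Rps26 at −0.86 ± 0.06 (7.7e-06) and Rps12 at −0.75 ± 0.07 (4.7e-05). The highest were Rpl30 at 0.95 ± 0.16 (0.0013) and Rps27 at 0.73 ± 0.06 (1.9e-05). Rpl30 had 72.7 and 71.6 RPKM in the double mutant, above both Npm1c libraries and Flt3-ITD replicate 2 and below Flt3-ITD replicate 1, against 78.5 and 79.7 in WT HSPC.

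**Figure D5:**
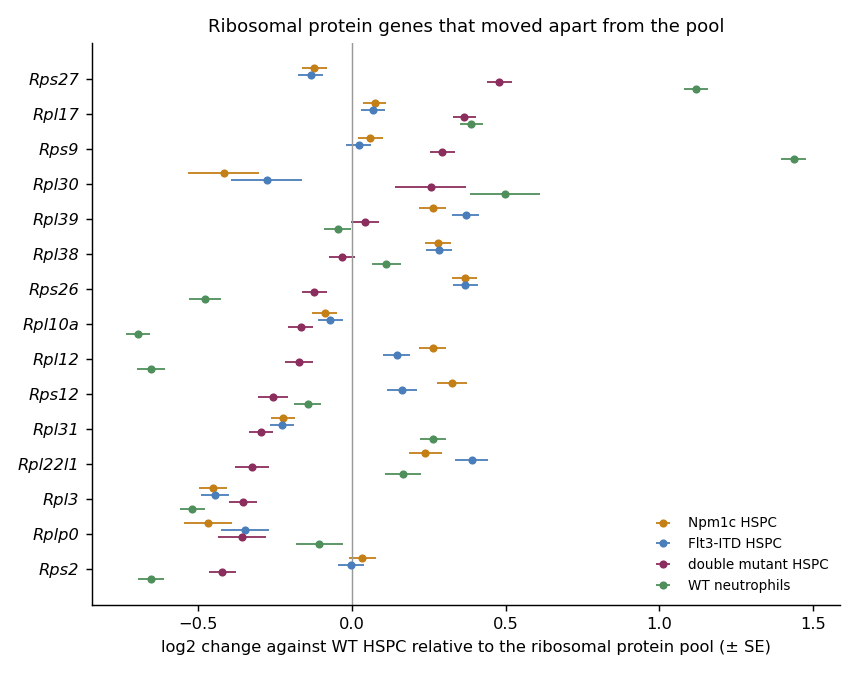
Log2 change relative to the ribosomal protein pool (horizontal axis, ± SE) against WT HSPC of 15 genes from the ends of the 4 comparisons with WT HSPC (Rpl3l is outside the axis and left out); colours are the groups. Rps27 stands at 0.48 in the double mutant, Rps9 at 1.44 in neutrophils, and Rpl3 is below 0 in all 4 groups.

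The subunits had similar medians. In neutrophils the median change was −2.37 for the 31 small-subunit and −2.43 for the 46 large-subunit genes, and in double mutant HSPC −0.38 and −0.41, all against WT HSPC. Summed per kilobase of coding transcript, large over small was 1.21 and 1.21 in Npm1c cells, 1.23 and 1.21 in Flt3-ITD cells, 1.23 and 1.22 in the double mutant and 1.15 and 1.16 in neutrophils, against 1.27 and 1.26 in WT HSPC. The ratio was thus lower in all 8 other libraries than in WT HSPC.

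The stalk, which recruits translation factors, was split by Rplp0. Rplp1 had 2122 and 2085 RPKM in double mutant HSPC and 379 and 397 in neutrophils, against 2586 and 2646 in WT HSPC. Rplp2 had 90.6 and 87.9 RPKM in double mutant HSPC and 22.2 and 21.7 in neutrophils, against 110 and 104 in WT HSPC. Neither was called relative to the pool in the double mutant, where Rplp0 was. Rpl5 and Rpl11, which with 5S rRNA bind and restrain Mdm2, were not called relative to the pool in the double mutant. Rpl5 had 111 RPKM in both double mutant libraries against 153 and 159 in WT HSPC. Rpl11 had 90.8 and 90.1 RPKM in the double mutant against 110 and 115 in WT HSPC.

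Of the 17 Diamond-Blackfan genes, 14 fell in the double mutant, 6 in Npm1c, none in Flt3-ITD and 17 in neutrophils, each against WT HSPC, with 1 rise (Rps26) in each single mutant. Of all genes 58.9%, 58.1%, 31.3% and 62.8% fell in these comparisons, so that the shares of the list in both single mutants lay below those of all genes. Their medians of −0.32, −0.13, −0.07 and −2.35 lay near those of all members. Under median-of-ratios scaling, which turned the first 3 medians to 0.02, 0.16 and 0.10, 5 fell and 3 rose in the double mutant, while 10 rose in Npm1c and 5 in Flt3-ITD. On that scale 39.8% of all genes fell and 38.0% rose in the double mutant, and 18.3% rose in Npm1c and 8.36% in Flt3-ITD. Rps19, the gene most often altered in the disease, had 39.0 and 38.3 RPKM in double mutant HSPC and 8.43 and 8.75 in neutrophils, against 52.2 and 54.8 in WT HSPC. It was not called relative to the pool in the double mutant. The 4 X-linked genes Rpl10, Rpl36a, Rpl39 and Rps4x all fell in the double mutant and in neutrophils, and under median-of-ratios scaling 1 of them fell and 1 rose in the double mutant. Rpl36a fell most among them in the double mutant, with 47.2 and 48.8 RPKM against 75.9 and 79.2 in WT HSPC. The p53-induced paralogue Rps27l had 26.7 and 25.8 RPKM in double mutant HSPC and 5.99 and 6.19 in neutrophils, against 35.4 and 37.1 in WT HSPC.

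Members with and without the pyrimidine run at the annotated start were set side by side. In the double mutant the median change relative to the pool was 0.00 for 28 genes with the run and −0.02 for 32 without it, and in neutrophils 0.00 for 28 and 0.02 for 33, both against WT HSPC. The medians lay furthest apart in Npm1c against WT HSPC, at 0.06 with the run and −0.03 without it, and for the interaction, at −0.05 and 0.02. Rps26 and Rps27, printed above with runs of 8 and 9 bases, were at −0.12 and 0.48 relative to the pool in the double mutant.

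Ribosomal proteins with other names did not all follow the members. Fau, a ubiquitin-like fusion to a small-subunit protein, had 199 and 196 RPKM in double mutant HSPC against 151 and 158 in WT HSPC, a rise of 0.35 ± 0.07 (limma adjusted p 0.0024). In neutrophils Fau had 122 and 114 RPKM, a deposited change of −0.39 ± 0.07 (0.00072) that turned to 0.47 under median-of-ratios scaling. Fau thus fell far less than the members' median of −2.39. Gnb2l1, the older symbol of the scaffold Rack1, had 134 and 133 RPKM in double mutant HSPC and 27.8 and 27.5 in neutrophils, against 186 and 196 in WT HSPC.

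Of 28 translation factors, 22 fell and 3 rose in the double mutant and 26 fell and 1 rose in neutrophils, with medians of −0.43 and −2.19 against WT HSPC. Of all genes 58.9% fell and 23.9% rose in the double mutant, and 62.8% and 28.4% in neutrophils. Under median-of-ratios scaling 11 fell and 6 rose in the double mutant and 25 fell and 3 rose in neutrophils, beside 39.8% and 38.0% of all genes in the double mutant and 44.9% and 45.8% in neutrophils. Eef1g, a subunit of the elongation factor complex, had 107 and 106 RPKM in double mutant HSPC and 22.03 and 22.9 in neutrophils, against 198 and 204 in WT HSPC. Eif4b, a helicase cofactor of initiation, had 167 and 179 RPKM with Npm1c alone, 181 and 177 with Flt3-ITD alone and 124 and 123 in the double mutant, against 242 and 241 in WT HSPC.

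The 10 importers and chaperones of ribosomal proteins all fell in the double mutant, with a median of −0.66, and all fell in neutrophils, with a median of −2.49, beside 58.9% and 62.8% of all genes. Under median-of-ratios scaling 8 of the 10 fell in the double mutant, beside 39.8%. They include the importin Ipo5 at −1.04 ± 0.06, Heatr3, a chaperone of Rpl5, at −1.02 ± 0.07, and Grwd1, a chaperone of Rpl3, at −0.95 ± 0.06, each in the double mutant against WT HSPC. Npm1 itself had 265 and 295 RPKM in Npm1c cells, 286 and 283 in Flt3-ITD cells, 146 and 142 in the double mutant and 19.0 and 19.9 in neutrophils, against 289 and 284 in WT HSPC. Its level does not show which allele was transcribed. Mitochondrial ribosomal proteins, encoded by another gene family, fell in 73 of 76 in the double mutant, with a median of −0.61, and in 75 of 76 in neutrophils, with a median of −1.90. Under median-of-ratios scaling 56 fell and 3 rose in the double mutant.

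Of 17 growth regulators tested, 12 fell and 1 rose in the double mutant (background 58.9% and 23.9%), and 10 fell and 4 rose in neutrophils (62.8% and 28.4%). The neutrophil counts were near the background. Under median-of-ratios scaling 7 fell and 4 rose in the double mutant (background 39.8% and 38.0%). In neutrophils the split turned, with 6 lower and 10 higher (44.9% and 45.8%). The share of all genes that rose was also larger there than on the deposited scale. Myc, which drives ribosomal protein transcription, had 0.30 RPKM in both neutrophil libraries against 6.55 and 6.62 in WT HSPC, −3.15 ± 0.07. Mxd1, its antagonist, had 6.72 and 7.11 RPKM in double mutant HSPC and 170 and 169 in neutrophils, against 3.46 and 3.34 in WT HSPC. Eif4ebp1, the mTOR-controlled brake on cap binding, had 27.3 and 28.4 RPKM in double mutant HSPC against 66.8 and 73.4 in WT HSPC, −1.32 ± 0.06. Taf1d, the 1 host gene of small nucleolar RNAs measured of 10 listed, had 24.5 and 26.7 RPKM in Npm1c against 17.4 and 16.1 in WT HSPC, a rise of 0.60 ± 0.06.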

How the data were processed

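Each library came as 1 deposited table of RPKM values, which scale a gene's reads to its length and to the library total. The submitters' processing notes name STAR 2.4.0, HTSeq, DiffBind and the build mm10, and the labels' protocols describe depletion of ribosomal RNA and a directional kit. The sources used here do not give the annotation, the use of strand or the handling of repeated matches. Whole reads were recovered from the steps of the RPKM values, within 0.02 reads, for 16652 of 16655 genes and all 82 members, and with them the gene lengths. They were compared with GENCODE M21 on GRCm38.

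Tests used limma 3.58.1 (R 4.3.3) with a variance trend on log2(RPKM + 0.5), which understates changes of low genes, for genes that reached 1 RPKM in 2 or more of the libraries fitted. The 6 comparisons among HSPC were fitted on 8 libraries and the neutrophil comparison on 10. Benjamini-Hochberg adjustment ran over all genes tested, at 0.05. The pool scale divides each library by its median ratio over the 77 standard members. Named genes were the role lists, the 5 highest and 5 lowest members in WT HSPC, and the 3 highest and 3 lowest called members per comparison on the pool scale. Genes of other lists were taken from the smallest adjusted p. Rps27a, Rpl9 and Rps20, and the repeats of a gene in further comparisons, were chosen after their values were seen. The members and lists were chosen with earlier results of these data known.

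Same-numbered libraries of different groups did not deviate together: correlations of their deviations across genes ran from −0.11 to 0.11. Whether they shared a preparation cannot be read from these values. Tested on simulated data for the double mutant against WT HSPC (7266 genes), 99.0% of genes changed by 0.5 and 100% of those changed by 1 (log2) were called, with 5.69% of calls false. For neutrophils against WT HSPC (7451 genes) the same shares were called, with 7.01% of calls false, above the 5% aimed at. The simulation gave every gene a dispersion of 0.003. For the double mutant it changed only 96 genes by 0.5 and 104 by 1. In the data 8035 of 9702 genes were called there, and some genes, such as Rplp0 in Flt3-ITD, varied more between libraries. These rates may therefore not hold for the data. Python 3.11.15, pandas 2.3.3 and matplotlib 3.10.9 were used. Some genes that these rules select are not reported here.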

Additional observations from a re-analysis of the deposited data

Results flagged for a closer look

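The effect of both mutations together differed from the sum of the single effects for 34 of 80 ribosomal protein genes on the deposited scale (limma, adjusted p under 0.05), with 29 lower and 5 higher. Of all genes, 27.6% were lower and 39.2% higher. Under median-of-ratios scaling 56 were lower and 4 higher, beside 36.1% and 37.1% of all genes. Relative to the pool, the interaction was −0.95 for Rpl22l1, −0.86 for Rps26 and −0.75 for Rps12. It was 0.73 for Rps27 and 0.95 for Rpl30. With 2 libraries per group, no test for single outlying libraries was made.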

How the results depend on the processing

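Counts of called members kept within 1.5 times under both other pseudocounts in all 7 comparisons, and the neutrophil and double mutant comparisons with single mutants did so under every scaling. In Npm1c against WT HSPC, 15 members were called without the minimum level, against 32. There most called members were lower on the deposited scale and higher under each other scaling. In Flt3-ITD against WT HSPC the 12 calls became 2 with library weights, 22 when scaled to the listed-gene total, 27 under median-of-ratios scaling, 4 without the minimum and 23 under quantile normalization, and the 18 calls relative to the pool became 8 with library weights. Median-of-ratios scaling gave 41 calls in the double mutant against WT HSPC, against 69. For the interaction, 57, 60 and 63 members were called under listed-gene total, median-of-ratios and quantile scaling, against 34. The cause of these shifts was not tested.

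Leaving out each library in turn gave 3 to 50 calls in Npm1c, 1 to 45 in Flt3-ITD and 58 to 76 in the double mutant, each against WT HSPC. It gave 39 to 67 for the double mutant over Npm1c, 51 to 74 over Flt3-ITD, 26 to 53 for the interaction and 80 to 80 in neutrophils. Relative to the pool the ranges, in that order, were 14 to 45, 5 to 24, 30 to 51, 29 to 49, 30 to 48, 36 to 50 and 52 to 64. A replicate block, although same-numbered libraries did not deviate together, gave 5 calls in Flt3-ITD against 12 without the block. It kept the other counts within 1.5 times. Of 975 recomputed values of named genes, 956 kept direction and side of the threshold, 18 lost the call and 1 turned: Fau in neutrophils, to 0.47 under median-of-ratios scaling.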
